A study of Drosophila melanogaster with 6 samples.

Results

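Voltage-gated and leak ion channel genes of the fly antenna were examined as a family of 37 genes, named by their FlyBase symbols and covering sodium, calcium, potassium, HCN and NALCN channels with their subunits. Of these, 36 had a row among the 17698 genes of the count tables, and the calcium channel beta subunit gene Ca-beta, whose reference identifier matched no row, was not analysed here. RNA was sequenced from whole antennae of female Drosophila melanogaster of 2 genotypes, with 3 libraries each in 3 sample pairs. Control flies were peb-Gal4/+;Or49a-GFP/+ and PCD-blocked flies were peb-Gal4/+;Or49a-GFP/UAS-p35, so driver and reporter were common to both. The added transgene encodes p35, a baculoviral inhibitor of caspases, which blocks programmed cell death (PCD). It acts where peb-Gal4 is active; this driver is inserted at the gene peb and is widely used for sensory neurons of the antenna. Each library pooled antennae of about 350 flies. The age of the flies was not given in the sources used here.

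Sensory neurons turn the current that flows through odorant receptors into spikes, and the channels described here set how they do so. Sodium channels carry the upstroke of the spike, potassium channels end it and set its rate, and calcium channels couple it to transmitter release. Leak and hyperpolarisation-activated channels set the resting potential from which a neuron fires. Most of these channels pair a pore-forming subunit with auxiliary subunits that change its gating or its transport to the membrane.

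Gene counts per library ranged from 15588725 to 17808516, lowest in PCD-blocked 1, and 3 counts corresponded to 0.168 to 0.192 CPM, the unit used here for counts scaled to library size. The first principal component separated the genotypes and held 57.0% of the variance. On the second, with 22.3%, PCD-blocked 1 stood apart at 24.0, against -17.8 to 8.26 for the other libraries. Transcripts of antennal support cells were abundant: the summed level of 5 such markers, among them the odorant-binding protein genes lush and Obp83a, was 16141 to 16613 CPM in controls and 15636 to 16339 CPM in PCD-blocked antennae. The driver gene peb did not pass the test (log2 fold change 0.01 ± 0.04 SE, adjusted p = 0.851, edgeR). Since these are whole antennae, fewer cells of a type and less RNA per cell cannot be told apart.

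Most of the changes were in potassium channel genes, which were also most of the genes tested (19 of 34). With cell death blocked, 19 of the 34 tested channel genes were higher and 4 were lower, at an adjusted p under 0.05 in edgeR's quasi-likelihood test over all 9181 tested genes. Of all tested genes 14.3% were called higher and 13.3% lower, 27.7% in all, against 67.6% of the channel genes. The channel genes were also more abundant than most, with a median of 98.3 CPM against 29.0 CPM for all tested genes. Among genes with a mean of 10 CPM or more, 30.7% were called, against 20 of the 27 channel genes at that level. The changes were small, since 12 of the 19 rises were under 1.2-fold. The median log2 fold change of the 34 genes was 0.18, against 0.00 for all tested genes. All 23 called genes moved in 1 direction in all 3 pairs, and the 2 genotypes did not overlap in 21 of them. Passing the test favours both, so neither count is separate support for the calls. The share of all tested genes with 1 direction in all 3 pairs was not counted. Over all tested genes, called or not, the genotypes did not overlap in 38.7%, which is not a like share for genes already called. DESeq2 called 14 of the 34 (14.3% of all tested genes). In edgeR without sample pair 2, 12 of the 34 passed, all of them among the 23 (16.1% of all genes tested there).

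**Figure D1:**
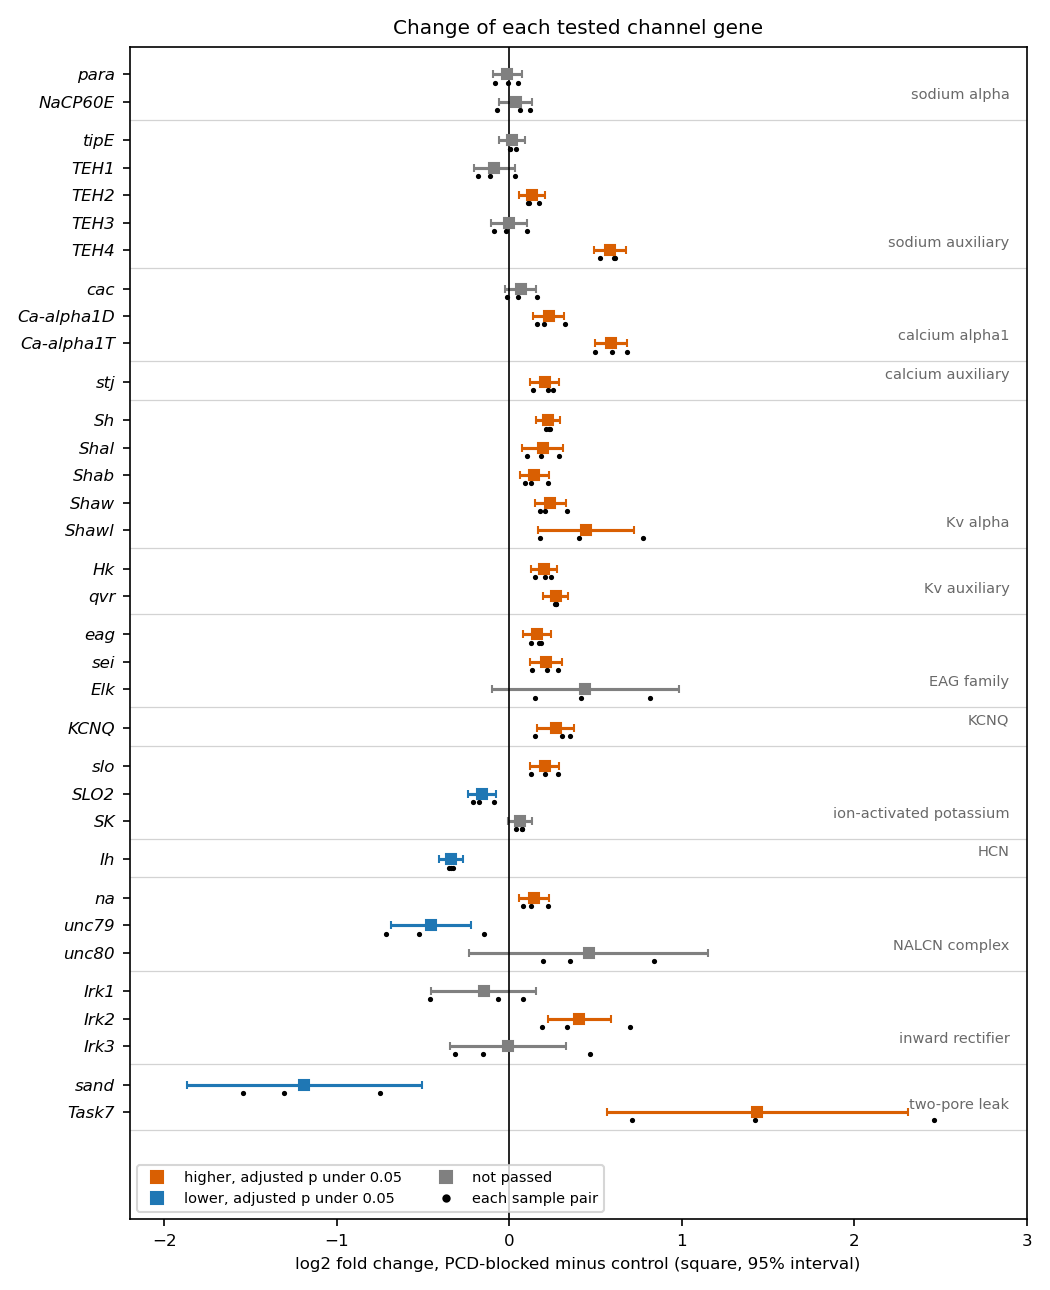
Log2 fold change of the 34 tested channel genes, PCD-blocked minus control, from the edgeR fit with sample pair as a block; squares give the estimate, bars the 95% interval and dots the 3 sample pairs. All 5 Kv alpha genes lie to the right of 0, Ih and SLO2 to the left, and the sodium channel gene para at -0.01.

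Levels were compared between genes per kb of exon, since longer transcripts collect more reads. The 5 highest genes in control antennae were TEH2 at 78.1 ± 1.98 CPM per kb, slo at 71.8 ± 0.68, para at 67.2 ± 2.09, Ih at 55.2 ± 1.21 and Hk at 51.6 ± 1.83 (SD, n = 3). These 5 came from 5 different subunit groups. At the other end, Task7, Elk, unc80, Task6 and Ork1 were each under 1 CPM per kb, as was sand at 0.827 ± 0.172. Of the 35 neighbours in this order, 13 overlapped between control libraries, among them TEH3 and SK, TEH4 and Shaw, and cac and KCNQ. Exon length was that of all annotated exons of a gene together, so a gene with many alternative exons, such as Sh with 22.8 kb, appears lower per kb than its transcripts are.

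**Figure D2:**
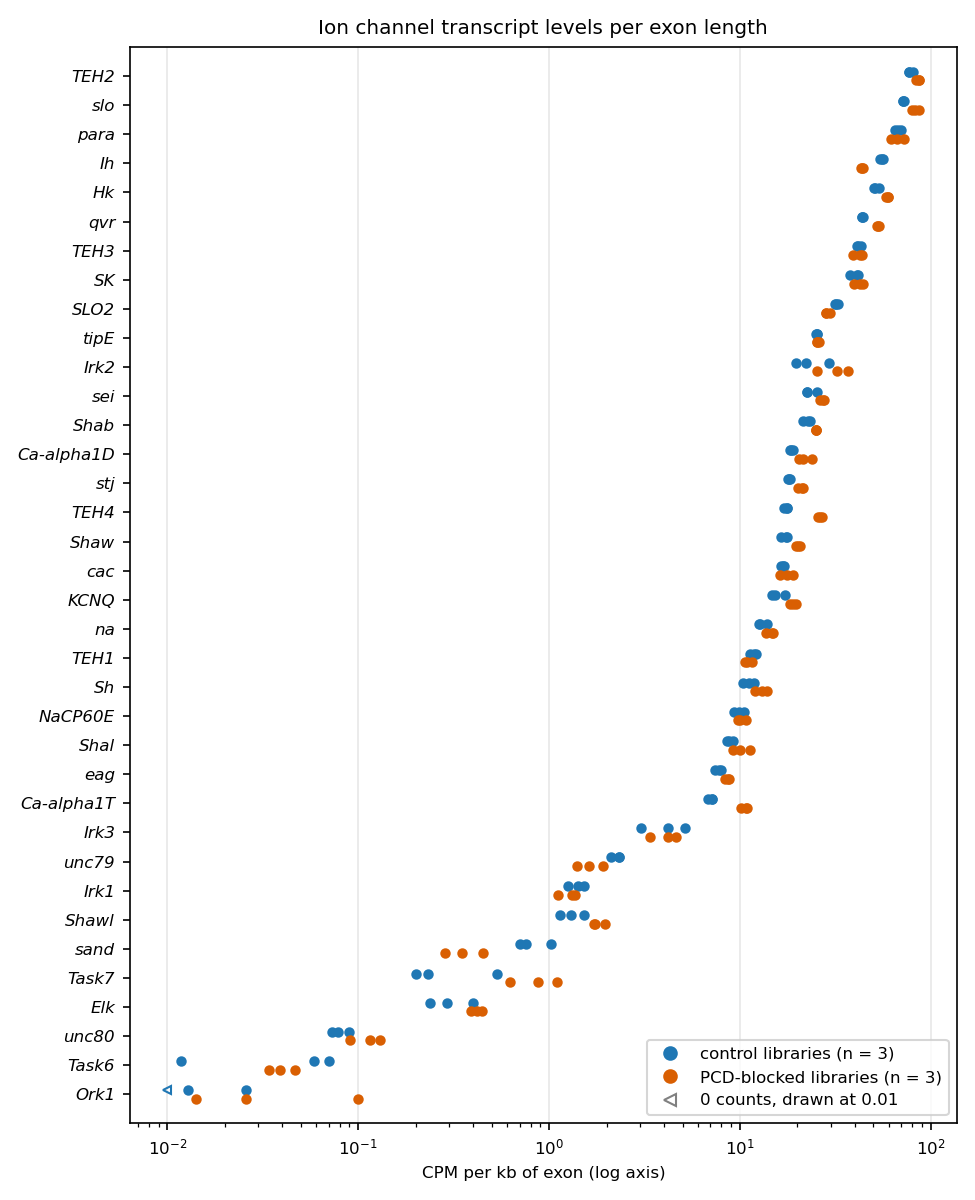
Level of the 36 channel genes in each library as CPM per kb of exon on a log axis, ordered by the control mean; each point is 1 library. Levels run from TEH2 at 78.1 CPM per kb down to the leak channel genes Task6 and Ork1, where 1 control library had no count and is drawn at 0.01.

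The sodium channel itself did not pass the test, while a pair of its auxiliary subunit genes rose. para (FBgn0285944, chromosome X, 16455027 to 16533096) encodes the channel that carries the spike in fly neurons. It had 1132, 1092 and 1064 CPM in controls 1 to 3 and 1175, 1087 and 1006 CPM in PCD-blocked 1 to 3. The genotypes overlapped, and the log2 fold change was -0.01 with a 95% interval of -0.09 to 0.07 (adjusted p = 0.861, edgeR). NaCP60E, a second gene of the sodium channel family, was at 155 ± 9.41 CPM in the controls against 159 ± 8.39 CPM in PCD-blocked antennae, with an interval of -0.06 to 0.13.

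TipE and its relatives TEH1 to TEH4 are small membrane proteins that modulate the Para channel, and 4 of these genes are neighbours on chromosome 3L: TEH4, TEH2, TEH3 within the span of TEH2, and tipE. TEH4 (FBgn0035504, 4174859 to 4178270) stood at 48.4, 48.1 and 46.7 CPM in the controls and at 69.8, 73.4 and 71.5 CPM in PCD-blocked 1 to 3. Each PCD-blocked library was well above every control, with a log2 fold change of 0.58 ± 0.04 SE (adjusted p = 2.04e-05, edgeR). TEH2 (4178980 to 4188023), the most abundant of the 5 per kb, had 253, 264 and 252 CPM in the controls against 273, 286 and 284 CPM in PCD-blocked antennae. Its genotypes did not overlap either, but the rise was 1.10-fold (log2 fold change 0.13 ± 0.03 SE, adjusted p = 0.0157, edgeR). The adjusted p ranged from 0.0139 to 0.104 over the 10 alternatives, and the call was lost with DESeq2, without pair 2 and without pair 3. The neighbouring TEH3, which overlaps TEH2 on the same strand over 14.4% of its exon bases, had a 95% interval of -0.11 to 0.10. For tipE, at 103 ± 0.484 CPM in the controls against 104 ± 1.09 CPM in PCD-blocked antennae, the interval was -0.06 to 0.09. TEH1, alone on chromosome 3R, had -0.09 with an interval of -0.20 to 0.03. Within the group, the share of TEH4 in the summed CPM per kb was 9.82% to 10.3% in controls and 13.5% to 14.1% in PCD-blocked libraries, while that of TEH2 was 44.1% to 45.6% and 43.9% to 45.8%.

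Calcium channel genes rose in 3 of 4 cases. Ca-alpha1T (FBgn0264386, chromosome X, 6104085 to 6192483), which encodes the T-type channel that opens at low voltage, had 88.9, 94.1 and 93.9 CPM in the controls against 143, 133 and 142 CPM in PCD-blocked 1 to 3. No libraries overlapped in this 1.51-fold rise (log2 fold change 0.59 ± 0.04 SE, adjusted p = 1.98e-05, edgeR), which also passed in all 10 alternatives. Ca-alpha1D (chromosome 2L, 16165831 to 16190540) encodes the L-type channel. It went from 198, 195 and 192 CPM to 248, 224 and 215 CPM, highest in PCD-blocked 1. The log2 fold change was 0.23 ± 0.04 SE (adjusted p = 0.00270, edgeR), with pair values of 0.32, 0.20 and 0.16.

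The gene cac encodes the presynaptic channel through which calcium enters to release transmitter. It had 199.6 ± 3.32 CPM in the controls against 209 ± 15.3 CPM in PCD-blocked antennae, with an interval of -0.02 to 0.16, and did not pass (adjusted p = 0.258, edgeR). Its alpha2-delta subunit gene stj (chromosome 2R, 13805794 to 13819571), needed to bring Cac to the terminal, had 111.9, 113.1 and 115.05 CPM in the controls against 134, 132 and 127 CPM in PCD-blocked antennae. All PCD-blocked libraries lay above all controls (log2 fold change 0.21 ± 0.04 SE, adjusted p = 0.00311, edgeR). By share of CPM per kb, Ca-alpha1T took 15.9% to 17.1% of the 3 pore genes in controls and 20.3% to 22.7% in PCD-blocked libraries, and cac took 39.2% to 39.7% and 34.2% to 35.8%.

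**Figure D3:**
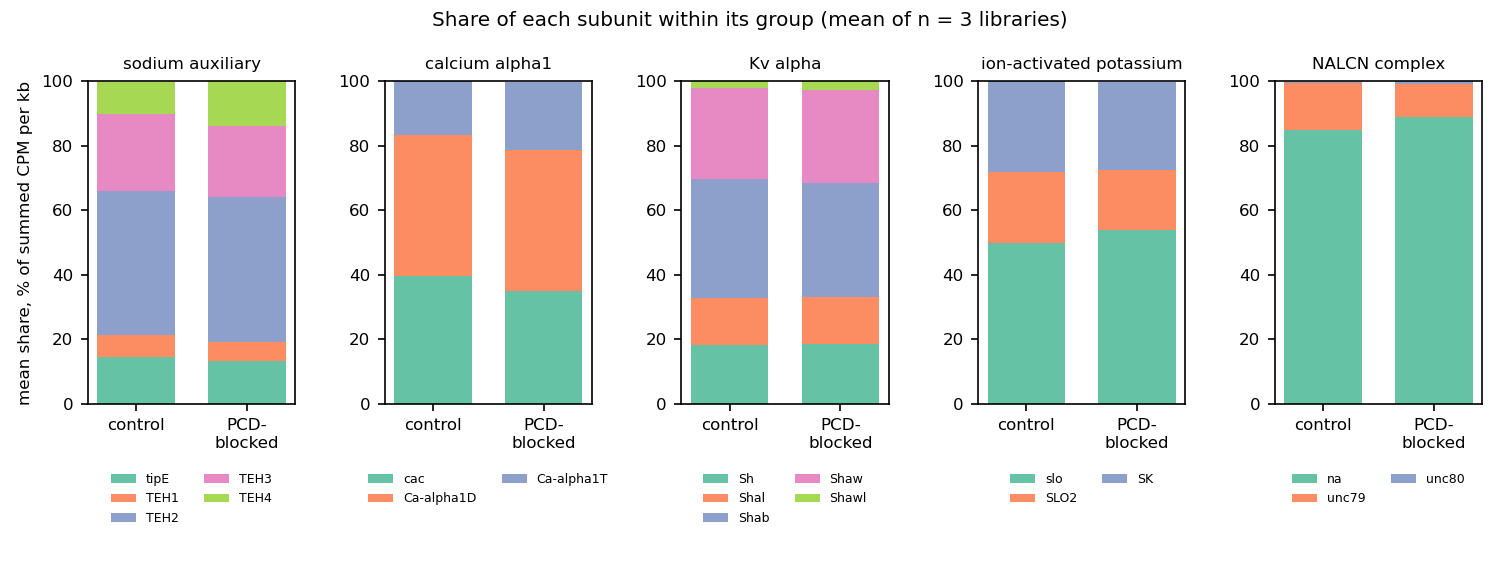
Mean share of each gene in the summed CPM per kb of its subunit group, for control and PCD-blocked antennae (n = 3 libraries each). The share of TEH4 rises from 10.03% to 13.8%, that of Ca-alpha1T from 16.6% to 21.2% and that of slo from 49.9% to 54.0%, while that of unc79 falls from 14.6% to 10.2%.

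All 5 genes of the Shaker-related (Kv) family were higher in PCD-blocked antennae. Sh (FBgn0003380, chromosome X, 17924307 to 18063247) encodes the fast-inactivating A-type channel Shaker. Its levels were 269, 253 and 237 CPM in the controls against 315, 298 and 275 CPM in PCD-blocked 1 to 3, and every PCD-blocked library exceeded every control. The log2 fold change was 0.23 ± 0.03 SE (adjusted p = 0.000787, edgeR), with pair values of 0.23, 0.24 and 0.21. Shaw, which encodes a Kv3-type channel, had 81.9, 87.8 and 86.6 CPM in the controls against 103, 101 and 98.0 CPM in PCD-blocked antennae, again without overlap (0.24 ± 0.04 SE, adjusted p = 0.00247, edgeR). Both calls held in all 10 alternatives.

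The other 3 rises were less firm. Shab encodes a delayed rectifier and had the highest level per kb of the Kv genes, with 243, 266 and 260 CPM in the controls against 283, 283 and 283 CPM in PCD-blocked antennae. The PCD-blocked libraries were nearly equal and above all controls (log2 fold change 0.15 ± 0.04 SE), but the adjusted p of 0.0168 (edgeR) came to between 0.0519 and 0.0669 with 1 pair left out, whichever pair it was, and to 0.0552 with DESeq2. Shal, which encodes a further A-type channel, went from 39.5, 42.3 and 40.5 CPM to 42.4, 51.7 and 46.0 CPM (0.19 ± 0.05 SE, adjusted p = 0.0232, edgeR). PCD-blocked 1 was only just above control 2, and the call was lost without pair 2 (adjusted p = 0.176, edgeR), without pair 3 (0.0650), with no pair as a block (0.0799) and with DESeq2 (0.327). Shawl, the Shaw-like gene, was the least abundant, at 7.19, 8.21 and 9.53 CPM in the controls against 12.3, 10.9 and 10.8 CPM in PCD-blocked antennae. Its groups did not overlap (0.45 ± 0.12 SE, adjusted p = 0.0255, edgeR), and the call was lost without pair 1 (0.158), without pair 2 (0.0998) and with DESeq2 (0.231). Over the 10 alternatives the adjusted p ranged from 0.0152 to 0.0669 for Shab, 0.021 to 0.327 for Shal and from 0.0114 to 0.231 for Shawl.

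Both auxiliary genes of Shaker rose with it. Hyperkinetic, encoded by Hk (chromosome X, 10233347 to 10263485), is the cytoplasmic beta subunit of Shaker. Hk had 539, 544 and 575 CPM in the controls against 623, 643 and 639 CPM in PCD-blocked 1 to 3, without overlap (log2 fold change 0.20 ± 0.03 SE, adjusted p = 0.00236, edgeR). qvr (chromosome 2R, 11442505 to 11451604) encodes Quiver, also called Sleepless, a membrane-anchored protein that promotes Shaker activity. It had 226, 222 and 222 CPM in the controls against 273, 266 and 268 CPM in PCD-blocked antennae, a 1.21-fold rise that was nearly the same in each pair at 0.27, 0.26 and 0.27 (adjusted p = 0.000309, edgeR).

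**Figure D4:**
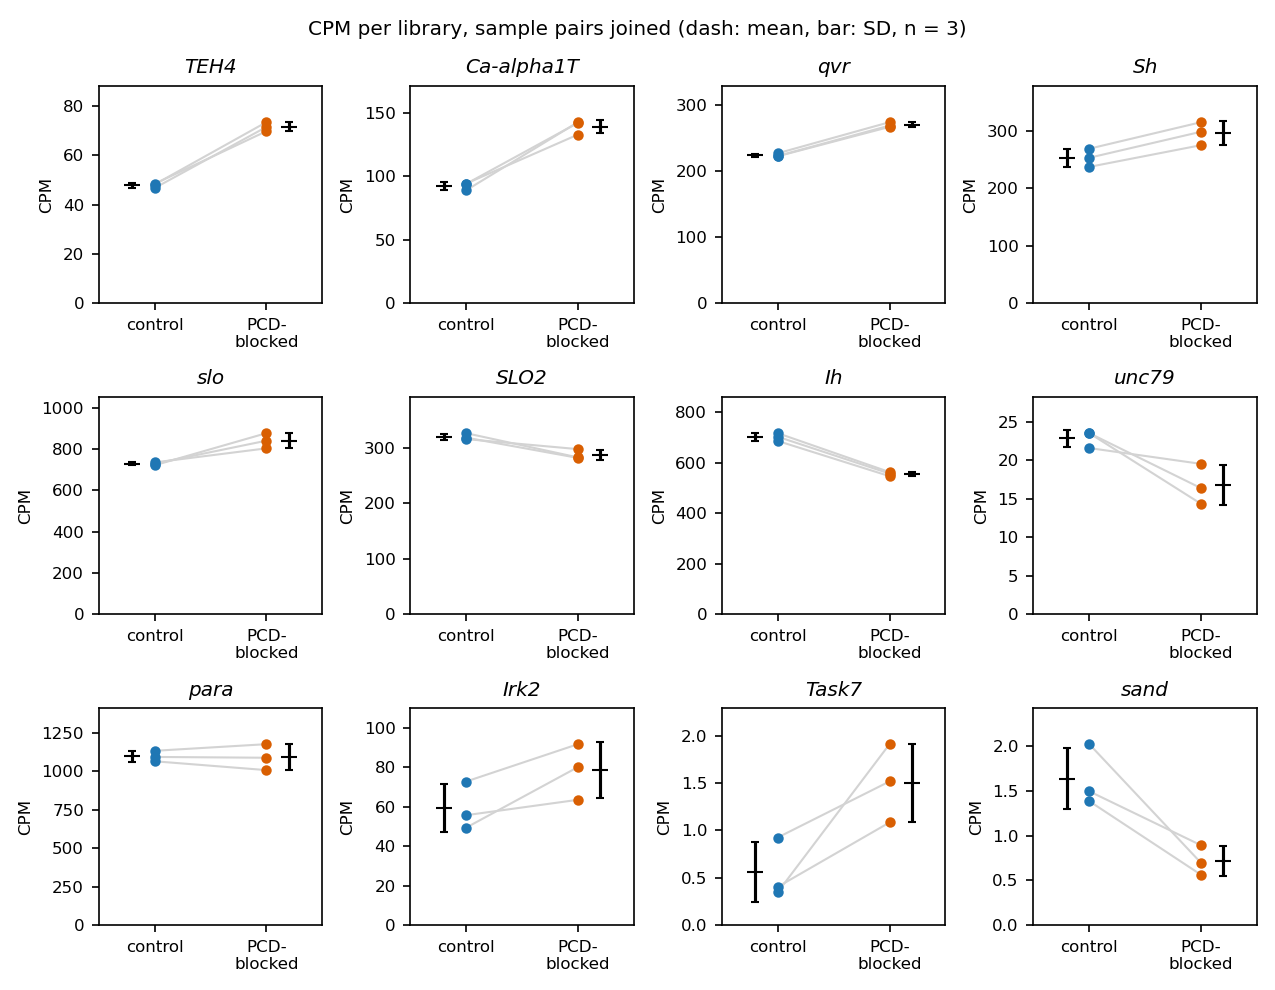
CPM of 12 channel genes in each library, with lines joining the libraries of a sample pair; dashes and bars give the mean and SD (n = 3). TEH4, Ca-alpha1T, qvr, Sh, slo and Task7 are higher in all PCD-blocked libraries, SLO2, Ih, unc79 and sand are lower in all, and para and Irk2 overlap between the genotypes.

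Of the ether-a-go-go (EAG) family, eag and sei rose. The gene eag encodes the founding member, a voltage-gated potassium channel, and had 82.5, 84.1 and 78.4 CPM in the controls against 93.2, 91.9 and 88.9 CPM in PCD-blocked antennae, without overlap (log2 fold change 0.16 ± 0.03 SE, adjusted p = 0.00835, edgeR). sei encodes the ERG-type channel and went from 74.0, 73.6 and 82.6 CPM to 86.3, 89.7 and 90.4 CPM, also without overlap (0.21 ± 0.04 SE, adjusted p = 0.00482, edgeR). DESeq2 called neither (adjusted p = 0.210 for eag and 0.0718 for sei), and eag was lost without pair 3 (0.0576) and sei without pair 2 (0.0548). Exons of gammaSnap1 and ppk29 lie opposite 14.6% of the exon bases of sei. Elk, the third member, was near the lower limit, with 86 counts in all controls and 113 in all PCD-blocked libraries, and its interval of -0.10 to 0.98 was wide. Over the 10 alternatives the adjusted p ranged from 0.00668 to 0.21 for eag and from 0.00252 to 0.0718 for sei.

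KCNQ (chromosome 2R, 10145897 to 10192394) encodes the slow, non-inactivating channel behind the M current. Its levels were 57.1, 59.4 and 66.5 CPM in the controls against 70.7, 75.9 and 73.8 CPM in PCD-blocked antennae. The groups did not overlap, and the 1.21-fold rise (log2 fold change 0.27 ± 0.05 SE, adjusted p = 0.00306, edgeR) passed in all 10 alternatives. Exons of asRNA:CR45133 and CG18011 lie opposite 27.4% of its exon bases, with the larger overlap from asRNA:CR45133. That RNA had 15 counts in all controls and 2 in all PCD-blocked libraries. CG18011 had 20.1 CPM in the controls against 17.9 CPM in PCD-blocked antennae.

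Among channels gated by intracellular ions, slo and SLO2 moved in opposite directions. slo (FBgn0003429, chromosome 3R, 24662491 to 24711595) encodes the large-conductance calcium-activated (BK) channel. It had 722, 729 and 735 CPM in the controls against 877, 841 and 804 CPM in PCD-blocked 1 to 3. The PCD-blocked libraries were all higher (log2 fold change 0.21 ± 0.04 SE, adjusted p = 0.00388, edgeR), a call just lost without pair 2 (0.0527). SLO2 (chromosome 2R, 10322195 to 10416996), a relative of slo, had 316, 327 and 318 CPM in the controls against 298, 283 and 282 CPM in PCD-blocked antennae. All PCD-blocked libraries were lower (-0.16 ± 0.04 SE, adjusted p = 0.0111, edgeR), and the call was lost without pair 2 (0.128) and without pair 3 (0.0643). SK, the gene of the small-conductance calcium-activated channel, was at 438 ± 23.1 CPM in the controls against 458 ± 23.0 CPM in PCD-blocked antennae, with an interval of -0.01 to 0.13. Over the 10 alternatives the adjusted p ranged from 6.43e-05 to 0.0527 for slo and from 0.00411 to 0.128 for SLO2.

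Ih (FBgn0263397, chromosome 2R, 14276130 to 14300095) showed the firmest fall. It encodes the hyperpolarisation-activated, cyclic nucleotide-modulated (HCN) channel, which passes a depolarising current at rest. Its levels were 686, 717 and 703 CPM in the controls against 547, 563 and 557 CPM in PCD-blocked 1 to 3. Every PCD-blocked library was far below every control, and the log2 fold change was -0.34 ± 0.03 SE (adjusted p = 9.02e-05, edgeR). The pair values were -0.33, -0.35 and -0.34, and the adjusted p was 0.00550 or less in all 10 alternatives.

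The sodium leak channel gene and its partner genes did not move together. The protein Na, or Narrow abdomen, is the fly NALCN pore, and Unc79 and Unc80 are large proteins it needs to work. The gene na had 100.1, 109.5 and 99.1 CPM in the controls against 117, 116 and 108 CPM in PCD-blocked antennae, so that control 2 overlapped PCD-blocked 3. Its 1.10-fold rise (log2 fold change 0.14 ± 0.04 SE, adjusted p = 0.0247, edgeR) was lost without pair 1 (0.115), pair 2 (0.0529) or pair 3 (0.0780), with no pair as a block (0.0758) and with DESeq2 (0.257). unc79 (chromosome 3R, 19230764 to 19246130) fell from 23.5, 23.5 and 21.6 CPM to 14.3, 16.4 and 19.5 CPM. The groups did not overlap, but the fall was uneven, with pair values of -0.72, -0.52 and -0.14 (-0.45 ± 0.10 SE, adjusted p = 0.0111, edgeR; 0.104 without pair 2). unc80 was barely detected, at 43 counts in all controls and 58 in all PCD-blocked libraries. Per kb of exon that was 0.0805 CPM in controls, against 13.1 for na and 2.25 for unc79. Over the 10 alternatives the adjusted p ranged from 0.0224 to 0.257 for na and from 0.00144 to 0.104 for unc79.

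Inward rectifier genes differed from each other in level and in spread. Irk2 (chromosome 3R, 23513617 to 23519445) had 55.6, 49.3 and 72.7 CPM in the controls against 63.4, 80.0 and 91.6 CPM in PCD-blocked 1 to 3. The genotypes overlapped, since control 3 exceeded PCD-blocked 1, yet within pairs PCD-blocked was higher by 0.19, 0.70 and 0.33. The log2 fold change was 0.41 ± 0.08 SE (adjusted p = 0.00573, edgeR), and without the pair as a block it did not pass (0.0847). Of 9 fat body and haemocyte markers 6 were tested, and 50% of these were called, against 27.7% of all tested genes. Pxn and apolpp rose and Yp2 fell, though Yp2 was lost with DESeq2 (adjusted p = 0.121), without pair 1 (0.0506) and without pair 2 (0.0864). Yp1, at -1.26 on the log2 scale, did not pass in the main fit (adjusted p = 0.0726, edgeR). It did pass with limma-voom (0.0328), and in edgeR with no expression filter (0.0149) and without pair 3 (0.0004). Among blood cell markers, the rise of Pxn was 1.29 on the log2 scale (adjusted p = 3.61e-05, edgeR). Hml and NimC1, also markers of blood cells, did not pass, at 0.20 and -0.11. The 9 markers together summed to 68.1 to 131 CPM in controls and 101 to 127 CPM in PCD-blocked libraries. The highest control sum, in control 1, included 65.1 CPM of Yp2. He had 1 count in all libraries together. The part of these markers in the result for Irk2 was not tested. Irk3 was at 6.36 to 10.7 CPM over all libraries with an interval of -0.35 to 0.33. Irk1 was at 5.84 to 8.04 CPM, with an interval of -0.45 to 0.16, and 61.0% of its exon bases are shared with CG46310, which had no count in these libraries. Over the 10 alternatives the adjusted p of Irk2 ranged from 0.00044 to 0.0847.

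The 4 two-pore leak channel genes of the family, whose channels let potassium pass at all voltages, were at low levels, each at 2.02 CPM or less in every library. Task7 had 0.403, 0.347 and 0.924 CPM in the controls against 1.08, 1.91 and 1.52 CPM in PCD-blocked antennae, or 29 against 77 counts in all. No libraries overlapped in this 2.71-fold rise, with an interval of 0.57 to 2.31 on the log2 scale (adjusted p = 0.0229, edgeR). sand, or sandman, known from sleep-controlling neurons of the brain, had 1.496, 2.02 and 1.39 CPM in the controls against 0.892, 0.694 and 0.562 CPM in PCD-blocked antennae, or 85 against 36 counts. Again no libraries overlapped in the 2.28-fold fall (interval -1.87 to -0.51, adjusted p = 0.0178, edgeR). Both calls were lost with DESeq2 (adjusted p = 0.173 for Task7 and 0.258 for sand) and without pair 2 (0.164 and 0.144), and Task7 also without pair 1 (0.0717) and sand without pair 3 (0.0525). Task6, with 12 counts in controls and 10 in PCD-blocked libraries, and Ork1, with 3 and 11, were below the expression filter and were not tested. Of the 11 counts of Ork1, 8 were in PCD-blocked 3. Over the 10 alternatives the adjusted p ranged from 0.0134 to 0.258 for sand and from 0.0131 to 0.173 for Task7.

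By ion, 13 of 19 tested potassium channel genes were higher and 2 lower (78.9% called), and 2 of 7 sodium channel genes were higher (28.6%). Of the 4 tested calcium channel genes 75% were called, as were 75% of the 4 HCN and NALCN genes. For the 24 pore genes and the 10 auxiliary genes the median log2 fold changes were 0.18 and 0.17. Of the 11 genes that did not pass, 7 had a 95% interval within 1.2-fold either way: para, NaCP60E, tipE, TEH1, TEH3, cac and SK. The others, Elk, unc80, Irk1 and Irk3, had low counts and wider intervals, which included a change of 1.2-fold. Whether depth or the spread between libraries set these widths was not tested. Channel genes are also long, with a median of 6280.5 bases of exon against 2122 bases for all tested genes. Among PCD-blocked libraries 19 of the 34 genes were highest in PCD-blocked 1, the library that stood apart on the second principal component. The share of all tested genes highest there was not counted, so the number is not read as a trait of channel genes. For the 15 channel genes with more than 10 kb of exon, the median log2 ratio was 0.18, 0.09 and 0.13 in pairs 1 to 3. For all 255 tested genes of that length it was 0.07, -0.07 and 0.00. Of these 255 genes 35.7% were called, against 66.7% of the 15 channel genes. The part of transcript length in the channel results was not tested.

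Further channel genes and ion transport genes were read from lists beside the family. Of 5 tested other two-pore genes, 2 were higher and 1 lower (60% called, against 27.7% of all tested genes). CG1688 rose from 9.06 ± 0.11 to 15.8 ± 2.04 CPM (1.74-fold, adjusted p = 0.000304, edgeR), CG10864 rose by 0.36 on the log2 scale and CG42340 fell by 0.62. DESeq2 called neither of the last pair (adjusted p = 0.147 and 0.151), and CG10864 was also lost without pair 2 (0.136) and CG42340 without pair 1 (0.0859). Of 3 tested cyclic nucleotide-gated channel genes 66.7% were called. CngB rose from 118 ± 1.25 to 142 ± 5.31 CPM, and CG42260 went from 13 counts in controls to 82 in PCD-blocked libraries, while Cngl, at -0.09, did not pass. With all 3 pairs, none of 10 further channel subunits and regulators passed in edgeR, DESeq2 or limma-voom, and 1 had an unadjusted p under 0.05 in edgeR. With a pair left out, Ank2 passed in edgeR without pair 1 (adjusted p = 0.0244) and CG42817 without pair 3 (0.0486). This list holds the Slo-binding protein gene slob, the alpha2-delta gene stol and the RNA editing gene Adar, with log2 fold changes of 0.01, 0.03 and -0.02. Among 12 pumps, exchangers and chloride channels 25% were called, near the 27.7% of all tested genes. The potassium-chloride cotransporter gene kcc rose from 289 ± 11.4 to 386 ± 7.83 CPM (adjusted p = 3.44e-05, edgeR). Calx, a sodium-calcium exchanger gene, rose by 0.25, and the chloride channel gene ClC-a fell by 0.32. The sodium pump gene Atpalpha, at -0.06 on the log2 scale, did not pass.

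Marker genes of neurons, glia, support cells, muscle and photoreceptors were read beside these results. Of 14 pan-neuronal markers, fne, Snap25 and cpx rose and Nrx-1 fell, or 28.6% called, near the 27.7% of all tested genes, with a median log2 fold change of 0.06; elav and nSyb, at 0.05 and 0.07, did not pass. The calls of Snap25, cpx and Nrx-1 were lost without pair 2 (adjusted p = 0.204, 0.194 and 0.194, edgeR) and without pair 3 (0.107, 0.135 and 0.0939), that of Snap25 also with DESeq2 (0.0934) and that of cpx with no pair as a block (0.0600). The marker futsch, at -0.10 in the main fit, did not pass there but did without pair 1 (adjusted p = 0.0118, edgeR). The 14 pan-neuronal markers together summed to 7586 to 7771 CPM in controls and 7561 to 7978 CPM in PCD-blocked libraries. Of 8 tested glial markers 62.5% were called: repo rose by 0.34 while Indy, Gat, Gs2 and axo fell by 0.50, 0.44, 0.24 and 0.21. Their summed level, mostly Gs2, was 4395 to 4479 CPM in controls and 3680 to 3821 CPM in PCD-blocked libraries, and alrm had at most 5 counts in a library. Of 4 tested support cell markers 75% were called. Obp28a rose and lush and Obp59a fell, the last with an adjusted p of 0.0502 (edgeR) without pair 2. Muscle markers summed to 205 to 256 CPM in controls and 226 to 286 CPM in PCD-blocked libraries. Most of this was Tm1, at 172 to 181 CPM in controls and 182 to 194 CPM in PCD-blocked libraries. Of 6 tested, none was called by edgeR in the main fit, by DESeq2 or by limma-voom, with 1, sls, at an unadjusted p under 0.05 in edgeR. With other settings of edgeR sls did pass: with median-of-ratios size factors (adjusted p = 0.0496), with no expression filter (0.0130), at 1 CPM in 3 libraries (0.0438), with scaling without genes above 1% of counts (0.0434) and without pair 2 (0.00293). Without pair 3, Mhc (adjusted p = 0.000153, edgeR), Mlc2 (0.00963) and up (0.000407) passed. Of 10 photoreceptor markers 4 were tested, and trp alone was called (25%), with a rise of 1.28. Their summed level was 306 to 333 CPM in controls and 310.3 to 345 CPM in PCD-blocked libraries. It was mostly norpA, at 297 to 326 CPM in controls and 295 to 328 CPM in PCD-blocked libraries. The marker ninaE was at 0.231 CPM or less and Rh3 had 1 count in all. The part of these shifts in the channel results was not tested.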

How the data were processed

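The deposited values are read counts per gene, whole numbers in 1 file per library. Per the labels' protocols, poly(A) RNA went into strand-keeping libraries. STAR 2.5.3a, HTSeq 0.9.1, cutadapt 1.8 and the build BDGP6 are listed in the submitters' processing notes, without order or settings. Annotation release and strand setting were not given in the sources used here, so reads of genes with exons on opposite strands may be mixed; 10 channel genes have such exons and 4 share exon bases with a gene on their strand. Rows that name no gene held 11.9% to 13.5% of counts and were left out. Symbols, exon lengths and coordinates (counted from 1) come from an Ensembl annotation of BDGP6, which matched 17560 of 17698 identifiers. TEH1 to TEH4 are spelled Teh1 to Teh4 there.

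Counts were fitted with edgeR 4.0.16 in R 4.3.3 (quasi-likelihood, TMM scaling, default expression filter) over 9181 genes, adjusted by Benjamini-Hochberg. The same fit was also run on simulated counts. These held no differences between sample pairs, so that run gives no error rate for the present data. The sample pair was a block because the labels and design text give pairs; deviations from the group means correlated within pairs 1 to 3 at 0.0688, 0.24 and -0.19, and between libraries of different pairs at -0.37 to 0.29, so they were no more alike within pairs than between them. CPM are relative to TMM-scaled totals. Nothing says that the pools were separate cohorts, so p-values measure the spread between these libraries, which may be partly technical. Replicates differed by more than sampling noise, the chi-square over its degrees of freedom being 4.12 to 10.6. Alternatives used DESeq2 1.42.0, limma 3.58.1 (voom), other scaling and filters, no block, or 2 of the 3 pairs. Intervals are 95% t intervals from the fit. Members and lists were chosen with earlier results of these data known. All members are named; those past the threshold, and the highest per kb of each subunit group, have a value per library. From the other lists up to 4 genes with the smallest p were to be named. The genes slob, stol, Adar, Atpalpha, apolpp, Pxn, Yp1, Yp2, Hml, NimC1 and He were added after their values were seen. So were alrm, ninaE, Rh3, Obp83a, sls, Mhc, Mlc2, up, Ank2, Cngl and futsch.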

Additional observations from a re-analysis of the deposited data

Results flagged for a closer look

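Reads counted as ambiguous, which were assigned to no gene, lie outside the gene counts, and their share was higher in all 3 PCD-blocked libraries. It averaged 1.99% of all counts there, against 1.92% in controls, where it ran from 1.91% to 1.93%. The files do not say from which genes these reads came.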

How the results depend on the processing

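The counts of channel genes called were the same, 19 higher and 4 lower, with median-of-ratios size factors, limma-voom, no expression filter, at least 1 CPM in 3 libraries and scaling without genes above 1% of counts, and all 23 remained called in each of these. With no replicate block 16 were higher and 4 lower. DESeq2 called 11 higher and 3 lower, and without sample pair 1, 2 or 3 the higher genes numbered 15, 11 and 14 and the lower ones 4, 1 and 2. Over all tested genes, DESeq2 called 653 higher and 662 lower against 1314 and 1225 in edgeR, and with 1 pair left out 753 to 1065 were higher and 728 to 1006 lower. Of the 23 called genes 10 passed in all 10 alternatives, and none of the 11 others passed in any.

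Direction changed with a pair left out for 6 of the genes that did not pass. Their log2 fold changes with 1 pair left out ran from -0.0478 to 0.0251 for para, from -0.00737 to 0.0919 for NaCP60E, from -0.000300 to 0.0230 for tipE, from -0.0572 to 0.0399 for TEH3, from -0.26 to 0.00726 for Irk1 and from -0.23 to 0.13 for Irk3. No called gene changed direction. Median log2 fold changes with 1 pair left out ran from 0.18 to 0.26 for the EAG family, from 0.24 to 0.41 for the other two-pore genes, from -0.0509 to -0.00337 for pumps, exchangers and chloride channels, from 0.0275 to 0.0722 for pan-neuronal markers and from -0.16 to -0.10 for glial markers. The NALCN median was -0.16 at 1 CPM in 3 libraries, where unc80 was not tested, and the median of all genes was -0.00752 with no expression filter. Except where unc80 was dropped, the cause was not tested. Depth limits the leak channel genes, unc80 and Elk, where a library holds few counts.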
